A study of Mus musculus with 6 samples.

Results

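The 10 genes described here encode a Wnt ligand, its receptors and co-receptors, parts of the complex that degrades β-catenin, and the nuclear effectors of the pathway. They were taken as a list of symbols, *Wnt5a*, *Fzd1*, *Fzd2*, *Lrp5*, *Lrp6*, *Axin1*, *Axin2*, *Gsk3b*, *Ctnnb1* and *Tcf7l2*, and all 10 were found by Ensembl identifier among the 11234 genes listed for every library. The values come from RNA-seq of MC3T3-E1, a mouse preosteoblast cell line, at passage 4, with the strain labelled C57BL/6. Both groups were held in serum-free medium for 24 h to synchronize the cells. Complete medium then replaced the serum-free medium in both groups. The 3 C3G libraries were made from cells given 100 μmol/L C3G in it for 24 h. The 3 control libraries were made from cells cultured without C3G, which the paper calls vehicle-treated in its abstract and untreated elsewhere. C3G (cyanidin-3-O-glucoside) is an anthocyanin, a plant pigment, and the study asked which transcripts it alters in bone-forming cells. The model is 1 cell line, at 1 dose and 1 time. The labels do not say whether the libraries of a group came from separate cultures, so the p values measure the spread between these libraries, which may be technical.

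In canonical Wnt signaling, a secreted Wnt protein binds a Frizzled receptor and the co-receptors LRP5 or LRP6 at the cell surface. Without ligand, β-catenin (*Ctnnb1*) is held by a complex of axin, APC and the kinases CK1 and GSK3, phosphorylated and degraded. With ligand, the complex is recruited to the membrane, β-catenin accumulates, and in the nucleus it joins TCF/LEF factors at target genes. In bone this pathway favors the osteoblast fate, and mutations of the human *LRP5* gene alter bone mass.

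Expression is given as FPKM, fragments scaled to the length of the gene model and to the mapped fragments of the library. These values allow levels to be compared between genes per unit of length, but the read counts behind them are unknown and no counting error can be given. Differences between groups are C3G minus control on the scale of log2(FPKM + 1), a scale on which changes of weakly expressed genes look smaller than they are. A gene was called a DEG (differentially expressed gene) when its unadjusted two-sided limma p was under 0.05 and its change was 1.2-fold or more. In RNA from whole cultures, fewer cells of a type and less RNA per cell cannot be told apart.

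Control replicate 1 stood apart from the other libraries. Across all genes its log2(FPKM + 1) values correlated with those of the other libraries at r = 0.886 to 0.939, whereas the other 5 libraries correlated with each other at r = 0.968 to 0.992. The median FPKM of the libraries ranged from 5.80 to 7.40, and 9 to 71 genes were listed at 0, with both the lowest median and the most zeros in control replicate 1. Of 11 osteoblast markers 10 were listed, among them *Runx2* at 5.46 to 9.07 FPKM, *Sp7* at 0.237 to 0.857, *Spp1* at 197 to 323 and *Col1a1* at 923 to 4432, the highest value of *Col1a1* again in control replicate 1. The summed FPKM of these markers was 2617 to 7656 in the control libraries and 2660 to 3575 in the C3G libraries. Of 26 markers of adipocytes, chondrocytes, macrophages and osteoclasts, endothelium and muscle, 6 were listed (*Sox9*, *Col2a1*, *Ctsk*, *Cd68*, *Cebpa* and *Des*). Their summed FPKM was 127 to 233 in the control libraries and 122 to 148 in the C3G libraries. *Sox9* (48.2 to 106 FPKM), *Col2a1* (35.1 to 104 FPKM) and *Ctsk* (16.6 to 34.5 FPKM) lay above *Runx2* and *Sp7* in every library. *Cebpa* (0.798 to 3.71 FPKM), *Cd68* (0.144 to 1.25 FPKM) and *Des* (0.715 to 1.63 FPKM) lay below *Runx2*. *Sox9* and *Col2a1* are chondrocyte markers. *Col2a1* measured 104, 43.7 and 46.9 FPKM in the control libraries and 35.1, 38.3 and 43.9 FPKM in the C3G libraries. It was not called (limma p = 0.118, exact permutation p = 0.2). The part of these 6 markers in the values below was not tested.

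No member of the list was called in either direction (0 of 10). At the same thresholds limma called 73 of all 11234 genes, or 0.650%, with 45 higher (0.401%) and 28 lower (0.249%) in C3G-treated cells. None of the 10 genes had an unadjusted limma p under 0.05, and the smallest was 0.253, for *Gsk3b*. After Benjamini-Hochberg adjustment over all genes each member had an adjusted limma p of 0.992, and no gene of the table was called by adjusted p, against 74 with an unadjusted p under 0.05. The smallest p of the exact permutation test among the members was 0.3, where 3 libraries against 3 allow 0.1 at the lowest. The groups overlapped for every one of the 10 genes, where 4.02% of all genes had groups that did not overlap (2.55% higher and 1.48% lower in the C3G group). Of the members, 3 had a difference above 0 and 7 below 0, with a median of -0.09, beside a median of 0.06 over all genes. With the replicate number as a block, limma called 169 genes (1.50%), again 0 of the 10 members, and 0 genes after adjustment.

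**Figure D1:**
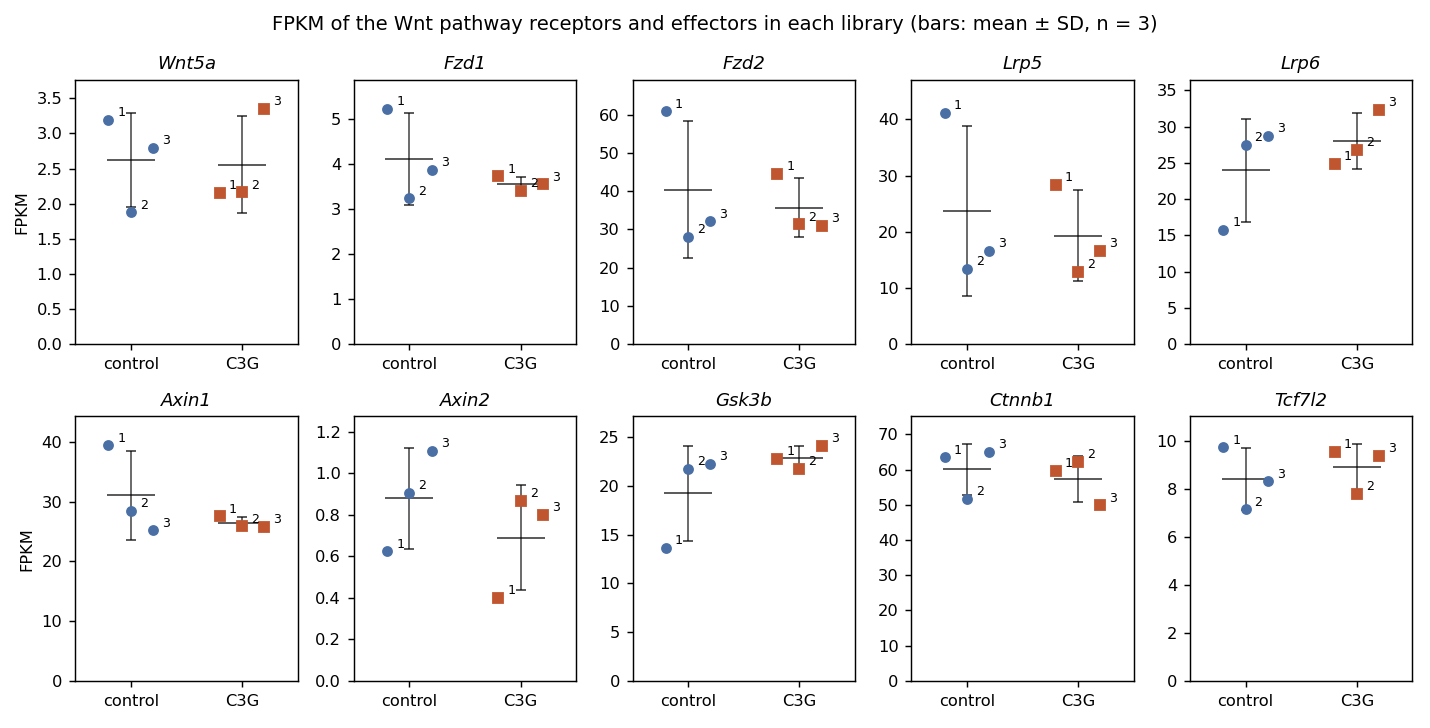
FPKM of the 10 Wnt pathway genes in each library, on linear axes that start at 0, with the control (blue circles) and C3G (orange squares) libraries side by side, replicate numbers beside the points and bars for mean and SD (n = 3). The groups overlap for every gene, and the highest *Lrp5* (41.1 FPKM) and *Fzd2* (60.9 FPKM) values and the lowest *Lrp6* (15.8 FPKM) and *Gsk3b* (13.7 FPKM) values are those of control replicate 1.

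Per unit of length, the 10 genes spanned from *Ctnnb1*, with a mean of 58.7 FPKM over the 6 libraries and above 93.7% of the listed genes, to *Axin2*, with 0.785 FPKM and above 4.32% of them. Between these came *Fzd2* (38.0 FPKM), *Axin1* (28.7 FPKM), *Lrp6* (26.0 FPKM), *Lrp5* (21.5 FPKM), *Gsk3b* (21.1 FPKM), *Tcf7l2* (8.65 FPKM), *Fzd1* (3.84 FPKM) and *Wnt5a* (2.59 FPKM). The order was sharp at its lower end. The ranges over the 6 libraries did not overlap between *Gsk3b* and *Tcf7l2*, between *Tcf7l2* and *Fzd1*, or between *Wnt5a* and *Axin2*. *Ctnnb1* exceeded *Fzd2* in 6 of 6 libraries and *Fzd1* exceeded *Wnt5a* in 6 of 6, although their ranges overlapped. In the middle of the order neighbors were not separated. *Axin1* exceeded *Lrp6* in 3 of 6 libraries, *Lrp6* exceeded *Lrp5* in 4 of 6, and *Lrp5* exceeded *Gsk3b* in 2 of 6.

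*Wnt5a* (ENSMUSG00000021994; GRCm38 chr14:28504750-28527448, plus strand) encodes a Wnt ligand best known for signaling that does not pass through β-catenin. Its FPKM was 3.19, 1.88 and 2.79 in control replicates 1 to 3 and 2.16, 2.16 and 3.35 in C3G replicates 1 to 3. The lowest value was that of a control library and the highest that of a C3G library, so that the groups overlapped, while the other C3G values lay below the other control values. The means were 2.62 ± 0.674 FPKM (SD, n = 3) in the control group and 2.56 ± 0.686 FPKM (SD, n = 3) in the C3G group. The log2 difference was -0.03, with a 95% interval from -0.54 to 0.49 (limma p = 0.910, exact permutation p = 1). Exons of *Wnt5a* overlap those of *Gm2670* on the opposite strand, and how the authors' counting used strand is not stated, so this value is uncertain to that extent.

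The 2 Frizzled receptors, membrane proteins that bind Wnt ligands, differed from each other in level by at least 8.29-fold in every library, and neither was called between the groups. *Fzd1* (ENSMUSG00000044674; chr5:4753839-4758035, minus strand) and *Fzd2* (ENSMUSG00000050288; chr11:102604396-102608058, plus strand) are both single-exon genes. The 30 codons printed here are the stretch in which most residues are shared between the pair, in GENCODE M21 transcripts on GRCm38, at chr5:4756324-4756413 (minus strand) and chr11:102605704-102605793 (plus strand). They are shown because near-identical sequence bears on whether reads can be assigned to the right gene. Capitals mark the bases that differ.
Fzd1: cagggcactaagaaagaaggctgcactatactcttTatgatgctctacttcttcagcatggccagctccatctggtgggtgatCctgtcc
Fzd2: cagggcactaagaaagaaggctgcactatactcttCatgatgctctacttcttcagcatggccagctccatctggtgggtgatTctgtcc
The 90 bases differ at 2 positions and encode the same residue at 30 of 30 codons. Over their whole transcripts, however, neither gene shared any stretch of 75 bases with another gene, and the same held for the other members.

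*Fzd1* measured 5.24, 3.25 and 3.87 FPKM in the control libraries and 3.73, 3.41 and 3.56 FPKM in the C3G libraries. The C3G values lay within the span of the control values, whose highest member was replicate 1. The means were 4.12 ± 1.02 and 3.57 ± 0.161 FPKM (SD, n = 3 each), with a log2 difference of -0.15 and a 95% interval from -0.59 to 0.30 (limma p = 0.457, exact permutation p = 0.6). *Fzd2* measured 60.9, 28.0 and 32.1 FPKM in the control libraries and 44.6, 31.3 and 31.0 FPKM in the C3G libraries. In both groups replicate 1 was the highest, 2.02-fold over the mean of replicates 2 and 3 in the control group and 1.43-fold in the C3G group. The log2 difference of *Fzd2* was -0.11, with a 95% interval from -0.87 to 0.64 (limma p = 0.735, exact permutation p = 0.8). With replicates 2 and 3 only it was 0.05. The difference was 0.22 without control replicate 1 and -0.28 without C3G replicate 1. Of the libraries left out in turn, only control replicate 1 changed its sign. *Fzd2* exceeded *Fzd1* in every library, by 11.6-, 8.64- and 8.29-fold in the control group and by 11.9-, 9.19- and 8.72-fold in the C3G group. The log2 ratio of *Fzd1* to *Fzd2* differed by -0.04 between the groups (exact permutation p = 0.7).

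*Lrp5* (ENSMUSG00000024913; chr19:3584828-3686564, minus strand) and *Lrp6* (ENSMUSG00000030201; chr6:134446476-134566965, minus strand) encode the co-receptors whose cytoplasmic tails recruit axin. The paralogs encode similar proteins in different bases, as the stretch of 30 codons with the most shared residues shows. It lies in coding exon 6 of both transcripts, at chr19:3630145-3630234 and chr6:134507357-134507446 on the minus strand of GRCm38. Capitals mark the bases that differ.
Lrp5: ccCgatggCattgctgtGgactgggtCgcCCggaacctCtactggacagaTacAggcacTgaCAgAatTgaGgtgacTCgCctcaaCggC
Lrp6: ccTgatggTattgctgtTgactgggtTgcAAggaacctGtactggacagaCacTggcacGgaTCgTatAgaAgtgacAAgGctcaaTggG
All 30 codons encode the same residue, yet 20 of the 90 bases differ, 17 of them at the third codon position. G or C made up 58.9% of the bases in *Lrp5* and 51.1% in *Lrp6*. Over the whole coding sequences the third-position GC content was 72.9% for *Lrp5* and 51.0% for *Lrp6*.

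*Lrp5* measured 41.1, 13.4 and 16.6 FPKM in the control libraries and 28.3, 12.8 and 16.7 FPKM in the C3G libraries. Replicate 1 was the highest library of each group, 2.74-fold over the mean of replicates 2 and 3 in the control group and 1.92-fold in the C3G group. The numbered pairs are libraries of equal replicate number, which the titles do not call matched. Within them the log2 differences were -0.52, -0.05 and 0.0030. The group means were 23.7 ± 15.2 and 19.3 ± 8.07 FPKM (SD, n = 3 each), and the log2 difference of -0.19 had the widest 95% interval of the 10 genes, from -1.28 to 0.90 (limma p = 0.690, exact permutation p = 0.7). With the replicate block the interval narrowed to -0.60 to 0.22 and *Lrp5* was again not called (limma p = 0.279 with the block, exact permutation p = 0.7 without it).

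*Lrp6* measured 15.8, 27.5 and 28.7 FPKM in the control libraries and 24.9, 26.8 and 32.3 FPKM in the C3G libraries. Here replicate 1 was the lowest library of each group, at 0.562 of the mean of replicates 2 and 3 in the control group and 0.841 in the C3G group. The means were 23.98 ± 7.12 and 28.0 ± 3.86 FPKM (SD, n = 3 each), with a log2 difference of 0.25 and a 95% interval from -0.36 to 0.86 (limma p = 0.358, exact permutation p = 0.6). Without control replicate 1 the difference of *Lrp6* was -0.01 and that of *Lrp5* was 0.28, so both changed sign.

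The order of the co-receptors was therefore not the same in all libraries. The FPKM ratio of *Lrp5* to *Lrp6* was 2.61, 0.487 and 0.580 in control replicates 1 to 3 and 1.14, 0.479 and 0.516 in C3G replicates 1 to 3. *Lrp5* was above *Lrp6* in the replicate 1 library of each group and below it in the other 4 libraries. The log2 ratio averaged -0.14 ± 1.27 in the control group and -0.58 ± 0.662 in the C3G group (SD, n = 3 each). The difference of -0.44 was smaller than the spread between the control libraries (exact permutation p = 0.6). Within the numbered pairs the difference was -1.15, -0.02 and -0.16, below 0 in 3 of 3. An exact paired permutation test, added after the data were seen, gave p = 0.25, the smallest that 3 pairs allow. Any 3 differences of the same sign give this p, so it adds nothing to the 3 of 3.

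*Axin1* (ENSMUSG00000024182; chr17:26138688-26195811, plus strand) encodes the scaffold of the destruction complex, and *Axin2* (ENSMUSG00000000142; chr11:108920349-108950783, plus strand) its paralog, which is itself a transcriptional target of β-catenin and acts in negative feedback. Their stretch of 30 codons with the most shared residues lies in exon 2 of both transcripts, at chr17:26143239-26143328 and chr11:108923795-108923884 of GRCm38. It shows how far this pair has diverged beside the other pairs. Capitals mark the bases that differ.
Axin1: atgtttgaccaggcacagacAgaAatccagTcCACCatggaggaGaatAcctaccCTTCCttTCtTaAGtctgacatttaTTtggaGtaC
Axin2: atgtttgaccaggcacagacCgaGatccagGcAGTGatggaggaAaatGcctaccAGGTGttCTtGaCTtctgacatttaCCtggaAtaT
The same residue is encoded at 24 of 30 codons, and 23 bases differ, 13 of them at the third codon position.

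*Axin1* measured 39.4, 28.5 and 25.2 FPKM in the control libraries and 27.5, 25.8 and 25.8 FPKM in the C3G libraries. The C3G values fell inside the control range, near its lower end. The means were 31.0 ± 7.45 and 26.4 ± 1.01 FPKM (SD, n = 3 each), with a log2 difference of -0.20 and a 95% interval from -0.67 to 0.27 (limma p = 0.339, exact permutation p = 0.4). Without control replicate 1 this difference was -0.02.

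*Axin2* was the member with the lowest level and measured 0.625, 0.905 and 1.11 FPKM in the control libraries and 0.400, 0.869 and 0.800 FPKM in the C3G libraries. It was the one member lower with C3G in all 3 numbered pairs, by -0.21, -0.03 and -0.23 on the log2 scale, where 11.6% of all genes were lower in all 3 pairs. The means were 0.879 ± 0.243 and 0.690 ± 0.253 FPKM (SD, n = 3 each), and the log2 difference of -0.16 had a 95% interval from -0.56 to 0.25 (limma p = 0.385, exact permutation p = 0.4). It was -0.26 without control replicate 1, -0.027 without C3G replicate 1 and -0.34 with a pseudocount of 0.1 in place of 1, and it was not called in any of these settings. With the replicate block the limma p was 0.206. Exons of *Axin2* overlap those of *Gm11670* on the opposite strand, and at this FPKM an unknown and possibly small number of reads lies behind each value. *Axin1* exceeded *Axin2* by 63.1-, 31.4- and 22.7-fold in the control libraries and by 68.8-, 29.7- and 32.2-fold in the C3G libraries. The ratio was highest in replicate 1 of each group, and its log2 value differed by -0.05 between the groups (exact permutation p = 0.8).

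*Gsk3b* (ENSMUSG00000022812; chr16:38089001-38246084, plus strand) encodes the kinase that marks β-catenin for degradation. It measured 13.7, 21.7 and 22.3 FPKM in the control libraries and 22.8, 21.7 and 24.1 FPKM in the C3G libraries. The low value of control replicate 1 set the control mean of 19.2 ± 4.83 FPKM apart from the C3G mean of 22.9 ± 1.203 FPKM (SD, n = 3 each). The log2 difference of 0.27 was the largest of the 10 genes in size, with a 95% interval from -0.24 to 0.78 (limma p = 0.253, exact permutation p = 0.3). Within the numbered pairs it was 0.70, -0.00095 and 0.11, and without control replicate 1 the difference was 0.05.

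*Ctnnb1* (ENSMUSG00000006932; chr9:120929216-120960507, plus strand) encodes β-catenin, which carries the signal to the nucleus and also links cadherins to the cytoskeleton. It measured 63.5, 51.8 and 65.1 FPKM in the control libraries and 59.7, 62.1 and 49.9 FPKM in the C3G libraries. The highest value was that of a control library and the lowest that of a C3G library, but within the numbered pairs the direction was not shared, at -0.09, 0.26 and -0.38. The means were 60.1 ± 7.27 and 57.2 ± 6.50 FPKM (SD, n = 3 each). The log2 difference was -0.07 with a 95% interval from -0.48 to 0.34, that is a fold between 0.717 and 1.27 (limma p = 0.702, exact permutation p = 0.5). Exons of *Ctnnb1* overlap those of *Ulk4* on the opposite strand and *Mir7090* on the same strand. β-catenin is controlled largely through its protein, which these data did not measure.

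*Tcf7l2* (ENSMUSG00000024985; chr19:55741820-55933654, plus strand) encodes a TCF/LEF factor that binds DNA together with β-catenin. It measured 9.73, 7.15 and 8.31 FPKM in the control libraries and 9.55, 7.78 and 9.37 FPKM in the C3G libraries. The values of both groups lay within the control range, and replicate 2 was the lowest library of each group. The means were 8.40 ± 1.29 and 8.90 ± 0.973 FPKM (SD, n = 3 each), with a log2 difference of 0.08 and a 95% interval from -0.34 to 0.50 (limma p = 0.664, exact permutation p = 0.7).

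**Figure D2:**
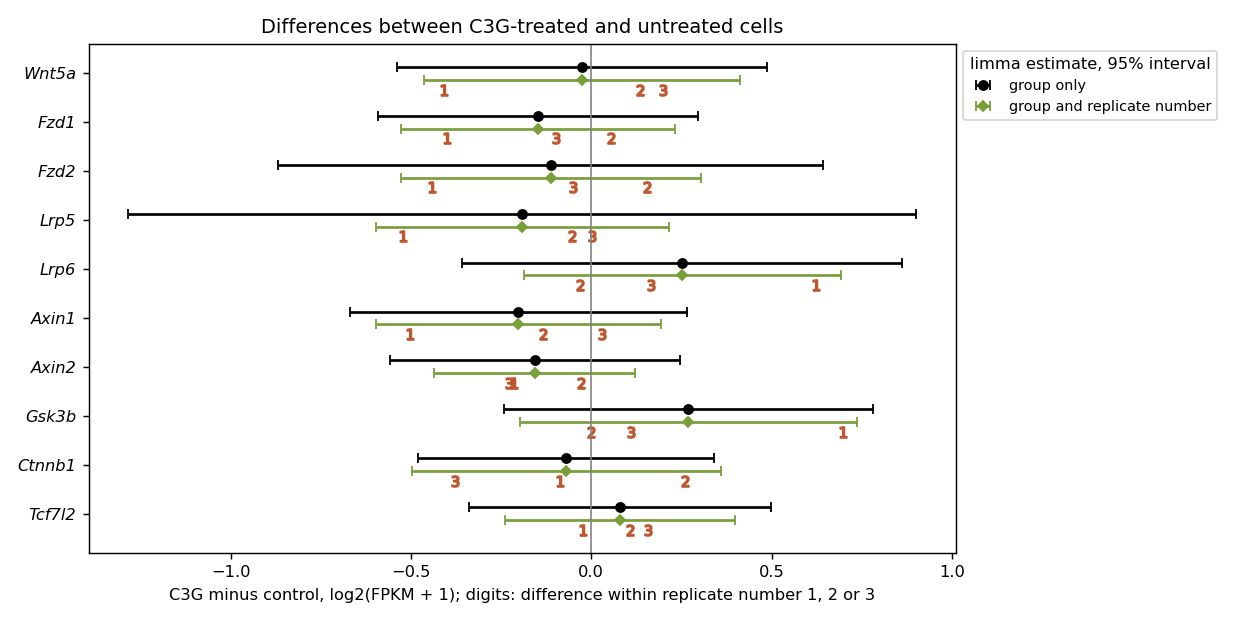
Difference between C3G-treated and untreated cells, in log2(FPKM + 1), for each of the 10 genes, with limma's estimate and 95% interval for a fit on group only (black) and with the replicate number as a block (green), and digits for the difference within each numbered pair. Each interval includes 0, and the interval of *Lrp5* is the widest without the block (-1.28 to 0.90).

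The width of the intervals differed between the genes. As folds on the log2(FPKM + 1) scale, the 95% intervals of *Ctnnb1*, *Tcf7l2* and *Fzd1* lay between 0.664 and 1.41. For *Lrp5* the interval ran from 0.411 to 1.87. A p above the threshold does not show that the levels of the groups were alike.

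The departures of replicate 1 were shared by both groups. The log2 value of replicate 1 minus the mean of replicates 2 and 3 of its group had the same sign in the control and the C3G group for 9 of the 10 genes, the exception being *Wnt5a* (0.34 and -0.23). Over all genes this share was 75.4%. Departures in the control and the C3G group were 1.41 and 0.91 for *Lrp5*, 1.00 and 0.50 for *Fzd2*, 0.54 and 0.09 for *Axin1* and 0.46 and 0.08 for *Fzd1*. They were negative for *Lrp6* (-0.79 and -0.24), *Gsk3b* (-0.65 and -0.01) and *Axin2* (-0.30 and -0.39). *Tcf7l2* (0.30 and 0.14) and *Ctnnb1* (0.13 and 0.10) also departed upwards in both groups.

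The departures ran in part along the GC content of the transcripts. The GC content of the longest coding transcript was 58.6% for *Lrp5*, 56.6% for *Fzd2* and for *Axin1*, 55.7% for *Fzd1* and 54.6% for *Axin2*. It was 50.3% for *Ctnnb1*, 47.3% for *Tcf7l2*, 46.7% for *Wnt5a*, 46.1% for *Gsk3b* and 46.0% for *Lrp6*. In control replicate 1 the genes at both ends of this order were also at both ends of the departures, *Lrp5* upwards and *Lrp6* downwards. In C3G replicate 1 *Lrp5* again had the highest departure, but the lowest was that of *Axin2*. Across the 10 genes Spearman's rho between GC content and the departure was 0.879 in control replicate 1 and 0.648 in C3G replicate 1. Across all 11211 genes with a GC value it was 0.769 and 0.651, so the relation was also present over the whole table. *Axin2* was the exception among the GC-rich members, with a departure below 0 in both groups. *Tcf7l2* and *Wnt5a*, with 47.3% and 46.7% GC, departed upwards in control replicate 1 (0.30 and 0.34). Genes are not independent replicates and share the library, so these are descriptions.

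**Figure D3:**
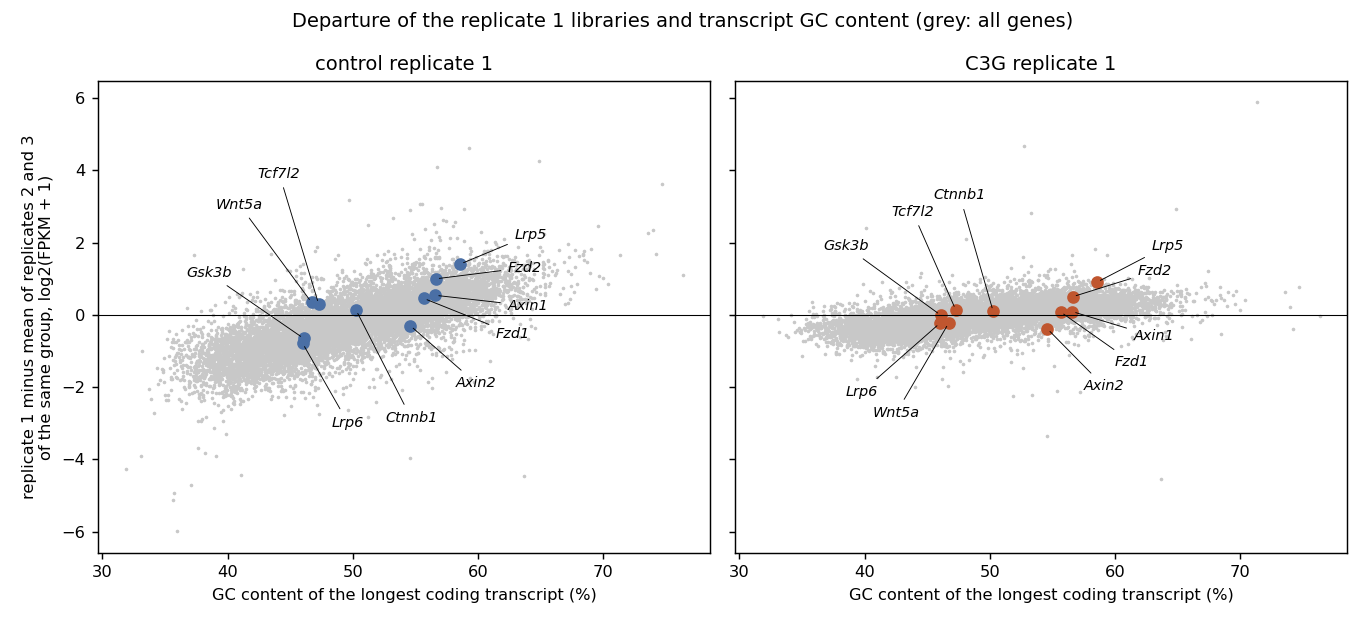
Departure of the replicate 1 library from the mean of replicates 2 and 3 of its group, in log2(FPKM + 1), against the GC content in percent of the longest coding transcript, for control (left) and C3G (right). Grey points are all genes and colored points the 10 Wnt pathway genes, which rise from *Lrp6* (46.0% GC) to *Lrp5* (58.6% GC), departing by -0.79 and 1.41 in control replicate 1.

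When the trend with GC content was subtracted from each library, the departure of control replicate 1 shrank for 6 of the 10 genes and that of C3G replicate 1 for 5. *Lrp6* went from -0.79 to -0.19 and *Gsk3b* from -0.65 to -0.06 in control replicate 1. *Lrp5* kept a departure of 0.86, and *Wnt5a* and *Tcf7l2* departed by more than before (0.87 and 0.77). Over the 10 genes the median size of the departure of control replicate 1 went from 0.498 to 0.412. After this GC correction the group differences of *Lrp6* and *Gsk3b* became 0.12 and 0.14, those of *Lrp5* and *Fzd2* -0.08 and -0.05, and the difference in the log2 ratio of *Lrp5* to *Lrp6* -0.21. The differences of *Fzd1*, *Axin1* and *Axin2* were -0.11, -0.14 and -0.14. Those of *Wnt5a* and *Ctnnb1* grew in size, both to -0.14, and that of *Tcf7l2* changed sign to -0.032. None of the 10 genes was called, where 1.26% of all genes were.

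The rest of the pathway was read from a list of 112 further Wnt pathway genes arranged by role, of which 70 were among the listed genes. Of these 70, limma called 0, with 0 at an unadjusted p under 0.05 and a smallest p of 0.0939 (*Csnk1g1*, a casein kinase). The median log2 difference was 0.01, with 37 genes above 0 and 33 below. Groups did not overlap for 1 of the 70, *Wnt9a*, a ligand, with 1.82, 2.91 and 2.81 FPKM in the control libraries and 3.39, 3.02 and 3.03 FPKM in the C3G libraries (limma p = 0.202, exact permutation p = 0.1). Over all genes the share without overlap was 4.02%.

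Among the listed ligands (4 of 18), *Wnt6*, *Wnt10b* and *Wnt10a* had nearly the same mean over the 6 libraries, 5.84, 5.82 and 5.80 FPKM, above that of *Wnt5a*. *Wnt6* measured 6.37 ± 2.94 FPKM in the control group, with 9.76 FPKM in control replicate 1, and 5.30 ± 1.05 FPKM in the C3G group (SD, n = 3 each), where *Wnt10b* had the higher mean, 5.88 ± 2.64 FPKM. *Wls*, the carrier that brings Wnt proteins to the cell surface, measured 10.4 ± 3.55 and 12.5 ± 1.21 FPKM (SD, n = 3 each). Among the other receptors and co-receptors (9 of 13), *Ptk7* had the highest mean over the 6 libraries, with 38.3 ± 8.24 and 40.1 ± 6.96 FPKM (SD, n = 3 each), close to the level of *Fzd2*. The genes grouped as secreted and surface inhibitors (4 of 16 listed) held the highest levels of the list. These were the levels of *Sfrp2*, a secreted protein related to the ligand-binding part of Frizzled, and of *Dkk3*, of the Dickkopf family. Whether *Dkk3* acts as an inhibitor in these cells was not tested. *Sfrp2* measured 201, 198 and 175 FPKM in the control libraries and 218, 193 and 197 FPKM in the C3G libraries. *Dkk3* measured 116, 216 and 204 FPKM in the control libraries and 154, 233 and 208 FPKM in the C3G libraries. *Sfrp2* had the higher mean over the 6 libraries (197 against 188 FPKM), but was above *Dkk3* only in the replicate 1 libraries. The group means of *Sfrp2* were 191 ± 14.1 and 203 ± 13.5 FPKM (SD, n = 3 each), and its log2 difference was 0.08 (limma p = 0.622, exact permutation p = 0.6). Of the R-spondin axis (3 of 9), which sustains Frizzled at the surface, *Rspo2* measured 30.3 ± 9.04 and 37.1 ± 0.914 FPKM (SD, n = 3 each).

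Inside the cell, *Dact3*, of the Dishevelled group (5 of 8), measured 26.2 ± 21.3 and 15.4 ± 4.19 FPKM (SD, n = 3 each), with 50.7 FPKM in control replicate 1 against 12.6 and 15.2 in replicates 2 and 3. None of the 5 genes of this group was called. The destruction complex and β-catenin turnover group was listed in full (15 of 15), with *Csnk1d*, a casein kinase, at 39.9 ± 3.06 and 40.3 ± 2.83 FPKM (SD, n = 3 each) as its highest gene. Of the nuclear factors (14 of 16), *Aes*, which encodes a short Groucho-family protein, measured 105 ± 63.2 and 76.0 ± 24.1 FPKM (SD, n = 3 each), with 177 FPKM in control replicate 1. Of the transcriptional targets (14 of 15), *Ccnd1*, which encodes cyclin D1, measured 125 ± 17.8 and 126 ± 23.3 FPKM (SD, n = 3 each), with a log2 difference of -0.000743 (limma p = 0.997, exact permutation p = 1). In the fit on group only, the targets, like *Axin2*, gave no call, and their median log2 difference was -0.01. Of the targets, *Gja1* and *Fosl1* were called lower in some of the alternative settings given below.

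**Figure D4:**
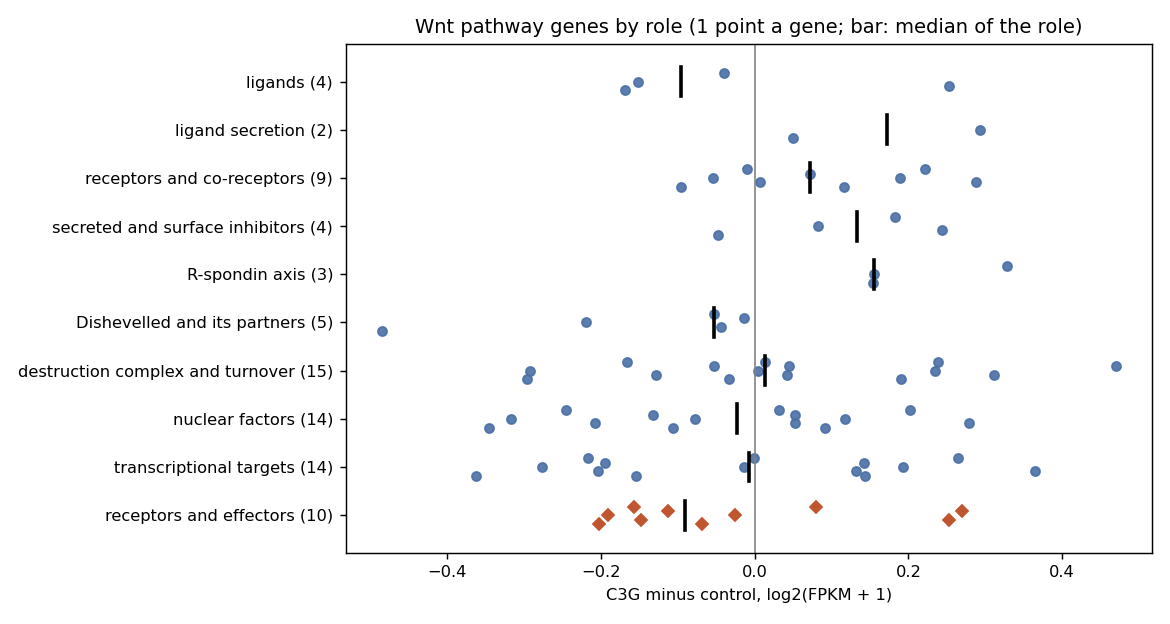
Difference between C3G-treated and untreated cells, in log2(FPKM + 1), for the 70 listed genes of the wider Wnt pathway and the 10 genes of the first list, arranged by role. The 70 genes run from -0.48 (*Dact3*) to 0.47 and lie on both sides of 0 with a median of 0.01, and none is called.

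The 70 genes also showed the replicate 1 pattern, with Spearman's rho between GC content and departure of 0.807 in the control and 0.609 in the C3G group. A few were called lower with C3G when libraries were left out or blocked, in settings in which genes of the whole table were called in both directions. *Apc*, the scaffold that binds β-catenin beside axin, measured 1.91, 6.05 and 5.14 FPKM in the control libraries and 3.52, 2.96 and 2.83 FPKM in the C3G libraries. Control replicate 1 was the lowest of all 6 libraries, and the other control libraries were above all C3G libraries. *Apc* was not called with all libraries (-0.29, limma p = 0.417, exact permutation p = 0.5), but was called without control replicate 1 and with replicates 2 and 3 only. *Gja1*, which encodes the gap junction protein connexin 43, was called in the same 2 settings. Of all 11234 genes, 76 were called higher and 68 lower (0.605%) without control replicate 1, and 88 higher and 103 lower (0.917%) with replicates 2 and 3 only. *Fosl1*, an AP-1 factor, was called with the replicate block (-0.36, limma p = 0.0456, exact permutation p without the block = 0.3) and without C3G replicate 2, but not with the block and the GC correction together, where 0 of the 70 genes were called. The remaining call was that of *Csnk1g1*, without control replicate 2. Lower calls made up 0.614% of all genes with the block, 0.142% without C3G replicate 2 and 0.445% without control replicate 2, and in each of these settings more genes were called higher than lower. With 1 or 2 calls among 70 genes, nothing particular to the pathway is read from them. The 4 genes were named here after their values were seen.

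Over the 6 libraries, the genes of the whole table most like *Ctnnb1* by Pearson's r of log2(FPKM + 1) were *Casp9* (r = 0.972), *Kif5a* (r = 0.953) and *Qdpr* (r = 0.944), and 11 genes had r above 0.9. Those most like *Axin2* were *Tmem8b* (r = 0.984), *Galnt15* (r = 0.982) and *Cmc1* (r = 0.980), and 76 genes had r above 0.9. With 6 points and 11234 genes to choose from, and with libraries that share the replicate 1 departures, these values are descriptions.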

How the data were processed

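RNA was extracted with TRIzol and sequenced from stranded libraries. The authors used Ballgown to compute the deposited values, which are FPKM, 1 for each gene in each library. The submitters' processing notes name cutadapt, HISAT2 2.1.0, StringTie and STAR 2.5.2b without roles. They give the build hg19, a human build, although the identifiers are mouse, of which 9828 of 11234 carry GENCODE M21 versions. Gene positions and sequences are from GENCODE M21 on GRCm38, and 11211 genes matched a symbol. Every listed gene has a mean of at least 0.5 FPKM in a group. Depth per library is unknown.

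The members, lists and settings were chosen with earlier results of these data known. The genes named are the 10 members, the highest gene of each pathway role and any called, the 3 genes most like *Ctnnb1* and *Axin2*, 4 osteoblast markers, and, chosen after their values were seen, 6 markers of other cells, *Wnt9a*, *Wnt10a*, *Wnt10b*, *Dkk3* and the genes called under an alternative. Log2(FPKM + 1) values of all genes were fitted with limma 3.58.1 (R 4.3.3, eBayes with trend) on group, two-sided, and adjusted by Benjamini-Hochberg. Permutation tests were exact, two-sided, over the group labels (Python 3.11.15, scipy 1.17.1). Paralog ratios were formed within a library in 3 pairs. Code was tested on simulated data. The titles number the samples but do not say that equal numbers belong together, so the block and the numbered pairs are an assumption. Deviations from group means correlated at r = 0.653, 0.580 and 0.440 within numbers 1, 2 and 3, and at -0.640 to 0.307 between numbers. Such deviations sum to 0 in each group, which by itself favors negative values between numbers, and they come from the same data as the fits. Alternatives were a pseudocount of 0.1, a mean FPKM of at least 1, no trend, median centring, quantile normalization, a GC correction (spline, 5 degrees of freedom), the replicate block with and without it, replicates 2 and 3 only, and leaving out each library. A paired test of the paralog ratios was added after the data were seen. Genes of the lists without a row were not analysed here.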

Additional observations from a re-analysis of the deposited data

How the results depend on the processing

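Under all 15 alternatives 0 of the 10 members were called, with a smallest limma p of 0.142 (*Axin2* without control replicate 1). Of 149 alternative values of the members' log2 differences, 134 kept their direction and 15 changed sign, none of them past the threshold. The number of genes called in the whole table, 73, became 141 with the GC correction, 169 with the replicate block, 248 with both and 191 with replicates 2 and 3 only, and ranged from 40 to 144 with 1 library left out. The wider pathway count, 0, became 1 with the replicate block, 0 with the block and the GC correction, and 2 with replicates 2 and 3 only, and ranged from 0 to 2 with 1 library left out. Among the members and the wider pathway the block changed no other call. For the paralog ratios the exact paired permutation p was 0.25 for *Lrp5* to *Lrp6*, 0.75 for *Axin1* to *Axin2* and 0.5 for *Fzd1* to *Fzd2*, with the differences as reported. With replicates 2 and 3 only, the difference of *Wnt5a* became 0.17 and that of *Fzd2* 0.053. With the GC correction, alone or with the replicate block, that of *Tcf7l2* became -0.032, that of *Lrp5* -0.082 and that of *Fzd2* -0.052. With a pseudocount of 0.1 that of *Axin2* became -0.34. The log2 ratio of *Axin1* to *Axin2*, C3G minus control, became 0.13 with a pseudocount of 0.1, 0.043 with quantile normalization and 0.076 with replicates 2 and 3 only. With 1 library left out in turn, log2 differences ranged from -0.18 to 0.089 for *Wnt5a*, -0.27 to 0.0046 for *Fzd1*, -0.33 to 0.22 for *Fzd2*, -0.50 to 0.28 for *Lrp5*, -0.011 to 0.40 for *Lrp6*, -0.33 to -0.022 for *Axin1*, -0.26 to -0.027 for *Axin2*, 0.052 to 0.39 for *Gsk3b*, -0.17 to 0.026 for *Ctnnb1* and -0.018 to 0.18 for *Tcf7l2*. The ratio differences ranged from -0.87 to 0.29 for *Lrp5* to *Lrp6*, -0.26 to 0.24 for *Axin1* to *Axin2* and -0.22 to 0.11 for *Fzd1* to *Fzd2*. Control replicate 1 set an end of most of these ranges, and the cause was not tested. *Axin2* has no value under the filter on mean FPKM. Depth is unknown, so counting error could not be set beside the spread of libraries.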
